A study of Mus musculus with 12 samples.

Results

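Collagen chains become fibrils only after a series of modifying, folding, trimming and cross-linking steps, and the 35 mouse genes described here encode the enzymes and helpers of those steps. They were taken by symbol from a table of 17922 genes, and all 35 of 35 were found there and passed the filter on low counts in every comparison. By role they are prolyl 4-hydroxylase subunits (4 genes), lysyl hydroxylases (3), the prolyl 3-hydroxylases and their partners (6), folding chaperones (3), collagen galactosyltransferases (2), export factors (3), genes of propeptide removal (7), cross-linking enzymes (6) and the collagen-binding matrix protein Sparc.

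As background, procollagen chains are hydroxylated on proline and lysine while they enter the endoplasmic reticulum, some hydroxylysines receive sugars, and the chains then fold into a triple helix held by chaperones. Procollagen is too long for ordinary transport vesicles and leaves in enlarged COPII carriers. Outside the cell proteases remove the propeptides, and lysyl oxidases oxidise lysine and hydroxylysine side chains, from which the covalent cross-links of the fibril form. In cartilage the main substrate is type II collagen, and loss of many of these enzymes causes skeletal disease. The prolyl and lysyl hydroxylases need oxygen, iron and 2-oxoglutarate.

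RNA-seq was done on primary chondrocytes, the cells of cartilage, which were released from mouse ribs with collagenase and cultured for about a day, with 3 samples in each of 4 groups. LDH knockout mice had both Ldha alleles floxed and 1 Ldhb allele lost, with Cre recombinase expressed from Col2-Cre (regulatory sequence of the type II collagen gene, active in cartilage), and were taken at postnatal day 5 (P5) with littermate controls. Acly knockout mice had both Acly alleles floxed with the same Col2-Cre and were taken before birth, at E18.5, also with littermate controls. Ldha and Ldhb encode the subunits of lactate dehydrogenase, the last enzyme of anaerobic glycolysis, and Acly encodes ATP citrate lyase, which makes acetyl-CoA in the cytoplasm. The question of the design was what reduced glycolysis and reduced cytoplasmic acetyl-CoA do in skeletal development. All mice were of mixed strain with C57BL/6 dominant. The controls are labelled only as such, so whether they carried Cre or floxed alleles is not given in the sources used here. Neither do the labels say whether the 3 samples of a group came from separate animals, so p-values measure the spread between these samples. The gene deleted and the age cannot be told apart between both sets.

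Each library held 26362407 to 28154143 expected counts, of which the 35 genes took 0.938% to 1.17%. Levels below are TMM-normalised counts per 1000000 (CPM) unless TPM is named. Ldha fell to 10.3% of control in the LDH knockout and Acly to 37.7% in the Acly knockout. Ldhb was not lower in the LDH knockout, against the allele lost by the label, with all 3 knockouts above all controls (14.6, 16.4 and 14.2 CPM against 12.3, 11.3 and 11.4). At 129% of control it did not pass (adjusted p = 0.115 in edgeR). Whether the lost allele still gives RNA that is counted, and the Ldhb genotype of the controls, are not given in the sources used here. Chondrocyte markers were abundant throughout, with 9 markers summing to 3240 to 10017 TPM per sample, against 99.7 to 1701 TPM for 9 markers of fibroblasts and perichondrium. The summed chondrocyte markers were above the controls in every knockout sample (6936 to 10017 against 3937 to 4439 TPM in the LDH set, 5522 to 6338 against 3240 to 3843 TPM in the Acly set). That sum is mostly Col2a1, with means of 3508 TPM in LDH controls and 2245 in Acly controls. By gene, 5 of 8 tested chondrocyte markers passed in edgeR in the LDH set, all 8 with groups apart. In the Acly set 2 of 9 passed, Col2a1 and Comp, and 3 had groups apart, all higher, while Hapln1 had -0.08. In the LDH set, fat cell markers rose (7 of 9 tested, 76.1 to 206 TPM against 26.2 to 34.0 in controls) and osteoblast markers were lower (2 of 5 tested passed, 30.7 to 99.6 against 183 to 275 TPM, Dmp1 at 0 in the knockout). Fibroblast markers were also lower there (99.7 to 128 against 141 to 231 TPM), with 7 of 9 below 0, a median log2 fold change of -0.48, 5 at an unadjusted p under 0.05 and 1, Col1a2, past the threshold. In the Acly set osteoblast markers summed to 182 to 278 TPM in knockouts and 334 to 460 in controls, and none of the 7 tested passed in edgeR (2 at an unadjusted p under 0.05). In that set, knockout 2 stood apart with 442 TPM of fibroblast markers, against 1296 and 1319 in the other knockouts. The summed CPM of 4 Y-linked genes was 0, 0 and 0.0367 in the LDH knockouts and 93.0, 102 and 0.590 in their controls. It was 0.0755, 74.3 and 82.8 in the Acly knockouts and 0.375, 121 and 2.83 in theirs. None of the markers of endothelium, leukocytes, red cells or muscle passed in either knockout in edgeR. At an unadjusted p under 0.05 there were 2 red cell markers in the LDH set, and 3 muscle, 2 leukocyte and 1 red cell marker in the Acly set. In bulk RNA, fewer cells of a type and less RNA per cell cannot be told apart.

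Levels of the 35 genes spanned a wide range. On the TPM scale, which corrects for transcript length, the collagen chaperone Serpinh1 (HSP47), with group means of 1677 to 1823 TPM, and Sparc, with 1150 to 1838, were highest in all 4 groups. P4hb had group means of 542 to 699.8 TPM. Loxl4 differed between both sets, at 492 TPM in LDH controls and 875 in LDH knockouts but 193 and 201 in the Acly controls and knockouts. P4hb, protein disulfide isomerase, is the beta subunit of prolyl 4-hydroxylase and a folding enzyme in its own right. The lowest in all 4 groups were the propeptidases Tll1, with group means of 0.513 to 0.823 TPM, and Adamts3, with 0.453 to 1.63. Adamts2 was at 0.947 TPM in LDH controls and 8.33 in Acly controls. Adamts2, Adamts3 and Adamts14 remove the N-propeptides of fibrillar procollagens. Bmp1 and Tll1 are C-propeptidases, and Bmp1, with group means of 28.1 to 88.4 TPM, was far the more abundant.

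The LDH knockout changed 10 of the 35 genes at an adjusted p under 0.05 in edgeR's quasi-likelihood test, 8 higher and 2 lower, and 25 did not pass. Of all 13321 genes tested, 2.49% passed, 1.43% higher and 1.07% lower. The 35 genes were chosen with earlier results of these data known, so the set is not independent of the values compared here. The 8 that rose were the cross-linking enzymes Loxl2, Lox, Loxl4 and Tgm2, the C-propeptidase enhancer Pcolce2, the galactosyltransferase Colgalt2, the prolyl 3-hydroxylase P3h2 and the prolyl 4-hydroxylase subunit P4ha2. The 2 that fell were the export genes Sec24d and Mia3. Knockout and control samples did not overlap in 19 of the 35, 13 higher and 6 lower, where 24.3% of all genes tested did not overlap, 11.9% higher and 12.5% lower. The median log2 fold change of the 35 was 0.11, against 0.01 over all genes. Genes acting inside the cell and outside it differed in their medians. Of the 21 acting inside, 3 rose and 2 fell with a median of -0.02, and of the 14 acting outside, 5 rose and none fell with a median of 0.40.

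**Figure D1:**
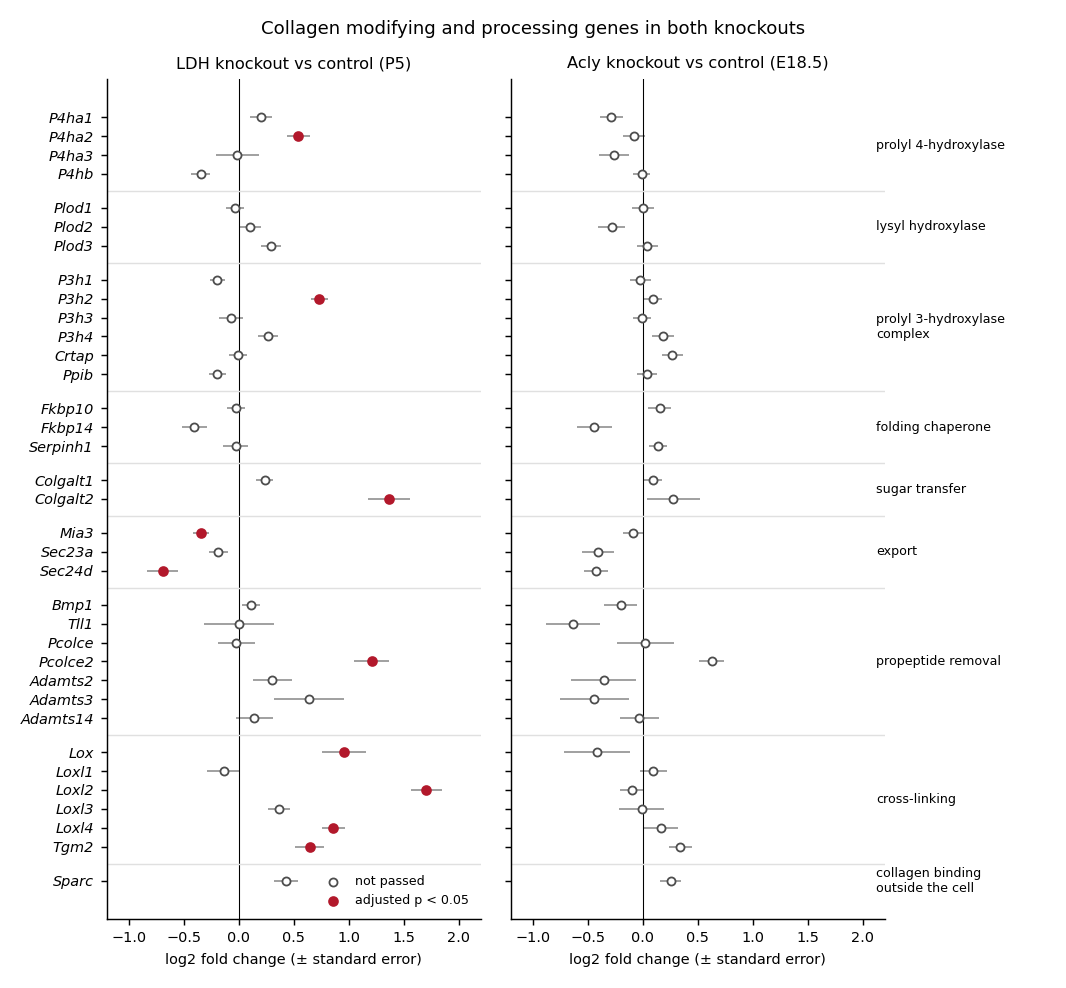
Log2 fold change, knockout over control, of each of the 35 genes in the LDH knockout at P5 (left) and the Acly knockout at E18.5 (right). Points are edgeR estimates with standard errors from 3 against 3 samples, grouped by role. Filled points, 10 at left and 0 at right, had an adjusted p under 0.05.

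The count depended on single libraries. It was 5 without LDH knockout 1, 5 without knockout 2, 6 without control 1 and 5 without control 2. With the Y-linked signal as a covariate, 0 of the 35 passed in edgeR, while all 10 kept their sign. An unadjusted p under 0.05 was found for 13 of the 35. The share of all genes at that level in this fit is not given here, so the 13 cannot be read as an excess. The 13 include Loxl1, Loxl3, P4hb and Ppib, which were not called, and leave out Sec24d (unadjusted p = 0.0805 in edgeR). The log2 fold changes with that covariate were 1.96 for Loxl2, 1.06 for Loxl4, 1.12 for Lox, 0.79 for P3h2, 1.23 for Pcolce2, 1.31 for Colgalt2, 0.63 for Tgm2 and -0.39 for Mia3, close to or larger than without it. Those of P4ha2 and Sec24d were smaller, at 0.34 and -0.34. With that covariate the knockouts are in effect compared largely with control 3, so these values rest on that single library. The part of the Y-linked difference in these results was not tested beyond that fit, since the signal was near 0 in all 3 knockouts and, among the controls, in control 3. Loxl2, Loxl4, P3h2, Pcolce2 and Colgalt2 kept their call in each of the 13 other alternatives tried. Fat cell, osteoblast, fibroblast and chondrocyte markers moved with the same groups, as given above, and their part in these results was not tested.

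Among cross-linking genes, 4 of 6 rose and the other two did not pass. Loxl2, a lysyl oxidase that also acts on type IV collagen, rose most. It was at 132, 132 and 94.1 CPM in the knockouts against 40.1, 38.2 and 31.4 in the controls. Every knockout sample was far above every control, a log2 fold change of 1.71 (SE 0.14, adjusted p = 0.00133 in edgeR). Its counts are not whole numbers in any of the 12 samples, and GENCODE M21 places an antisense transcript and a microRNA gene over it, so its count is uncertain to that extent. Strand use is not given in the sources used here, and Lox, P3h2 and Tgm2 also overlap genes on the opposite strand. Counts that are not whole also occur for Mia3 in 5 of the 12 samples, Adamts2 in 4 and P3h3 in 2, so these are uncertain too.

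Lox, the founding lysyl oxidase of fibrillar collagen and elastin, was at 264, 188 and 148 CPM in the knockouts against 126, 89.7 and 92.6. The knockout samples were spread widely, and the lowest was close above the highest control (log2 fold change 0.96, SE 0.20, adjusted p = 0.0394 in edgeR). The call was lost in 7 of 14 alternatives. Loxl4, the most abundant lysyl oxidase of the LDH set by TPM, was at 2560, 2733 and 2349 CPM against 1534, 1431 and 1244. The groups were well apart (log2 fold change 0.86, SE 0.10, adjusted p = 0.00716).

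Tgm2, a transglutaminase that joins glutamine to lysine in matrix proteins, was at 84.2, 87.0 and 62.3 CPM against 54.8, 44.4 and 49.9. All knockouts were above all controls (log2 fold change 0.65, SE 0.13, adjusted p = 0.0358), though the call was lost in 7 of 14 alternatives. Loxl3 had a log2 fold change of 0.36 (SE 0.10, adjusted p = 0.0893) with groups that did not overlap. Loxl1, best known from elastic fibres, had -0.14 (SE 0.15) with overlapping groups. The summed level of the 5 lysyl oxidase genes went from 798 ± 80.6 TPM in controls to 1265 ± 76.2 in knockouts (SD, n = 3). Loxl4 made up 61.5% ± 3.43 of that sum in controls and 69.2% ± 1.79 in knockouts, Loxl1 16.1% ± 4.09 and 9.07% ± 0.932, and Loxl2 1.64% ± 0.137 and 3.30% ± 0.364. These shares describe levels and were not tested.

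**Figure D2:**
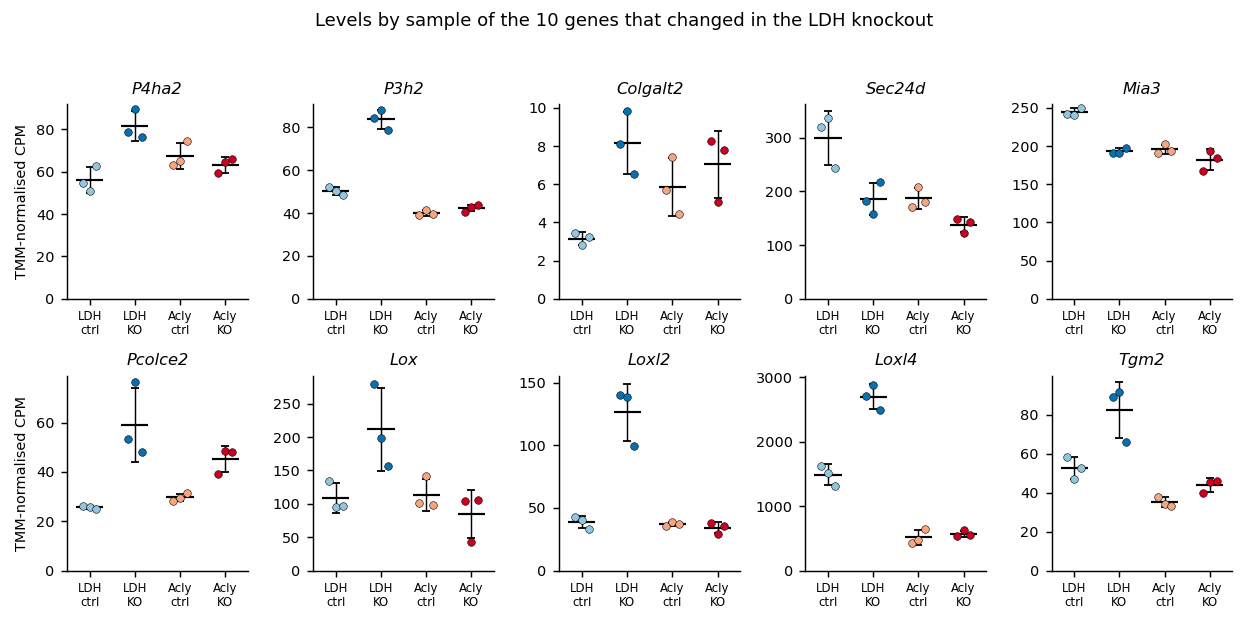
TMM-normalised CPM by sample of the 10 genes that changed in the LDH knockout, in all 4 groups (ctrl, control; KO, knockout), scaled over all 12 samples, so that values differ slightly from those of the 6-sample scaling in the text. Points are samples, long bars means and short bars ± 1 SD (n = 3). In each panel the 3 LDH knockouts lie all above or all below the 3 LDH controls.

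In propeptide removal 1 of 7 genes rose. Pcolce2, an enhancer of the C-propeptidases that binds the procollagen C-propeptide, was at 50.3, 72.3 and 45.3 CPM in knockouts against 24.5, 24.2 and 23.9 in controls. The controls were nearly equal and every knockout was well above them (log2 fold change 1.21, SE 0.16, adjusted p = 0.00731 in edgeR). Its relative Pcolce, with the same function, was at 21.1, 23.6 and 23.8 against 29.0, 17.0 and 23.5, and the groups overlapped. Bmp1 (0.11, SE 0.09), Tll1 (0.00, SE 0.32), Adamts2 (0.31, SE 0.18), Adamts3 (0.64, SE 0.32) and Adamts14 (0.14, SE 0.17) did not pass, and their groups overlapped. Except for Bmp1 these were low genes, under 5 CPM in both groups, so their standard errors are wide.

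Of the galactosyltransferases, which add galactose to hydroxylysine, Colgalt2 rose from a low level. It was at 7.66, 9.32 and 6.18 CPM in knockouts against 3.23, 2.65 and 3.08 (log2 fold change 1.37, SE 0.19, adjusted p = 0.00906 in edgeR). On the log2(FPKM + 1) scale, which understates the change of low genes, it was 0.74. Colgalt1 had 0.24 (SE 0.08, adjusted p = 0.136) with groups that did not overlap. Colgalt1 nonetheless carried the family, with 98.9% ± 0.0887 of its TPM in controls and 97.6% ± 0.498 in knockouts.

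The prolyl 3-hydroxylase group was divided. P3h2 was at 79.5, 83.4 and 74.4 CPM in knockouts against 49.3, 47.6 and 45.9 in controls. The groups were narrow and far apart (log2 fold change 0.73, SE 0.08, adjusted p = 0.00316 in edgeR). P3h1, which forms the main collagen 3-hydroxylation complex with Crtap and the isomerase Ppib (cyclophilin B), had -0.19 (SE 0.07, adjusted p = 0.170). Ppib had -0.19 (SE 0.08, adjusted p = 0.205), and neither gene's groups overlapped, with the knockouts lower. Crtap (-0.01, SE 0.08) and P3h3 (-0.07, SE 0.11) had overlapping groups, and P3h4, a partner of P3h3 in a lysine-modifying complex, had 0.27 (SE 0.09, adjusted p = 0.140).

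Among the 3 prolyl 3-hydroxylases, the share of TPM from P3h2 went from 25.4% ± 0.690 to 38.8% ± 0.651 in the LDH set, and that from P3h1 from 46.6% ± 1.86 to 36.7% ± 1.16. In the Acly set the P3h2 share was 17.5% ± 0.338 in controls and 18.6% ± 0.915 in knockouts. The sum over the 3 genes was 162 ± 7.97 TPM in LDH controls and 173 ± 8.11 in LDH knockouts.

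**Figure D3:**
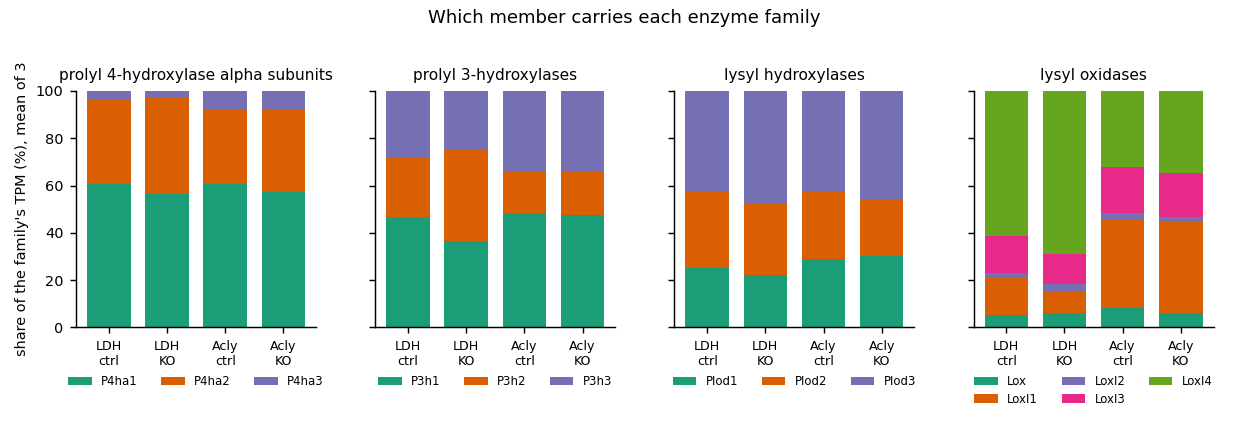
Share of each gene in the summed TPM of its enzyme family (vertical axis, percent, mean of 3 samples), by group. In the LDH knockout P3h2 took 38.8% of the prolyl 3-hydroxylase sum against 25.4% in its control, and Loxl4 69.2% of the lysyl oxidase sum against 61.5%. In the Acly controls Loxl4 took 32.3% and Loxl1 37.7%.

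Among the prolyl 4-hydroxylase genes, whose product makes the hydroxyproline that stabilises the triple helix, P4ha2 rose. It was at 74.4, 85.0 and 72.1 CPM in knockouts against 51.4, 47.9 and 59.5 in controls. All knockouts were above all controls (log2 fold change 0.54, SE 0.10, adjusted p = 0.0264 in edgeR). Control 3, whose Y-linked signal was near 0, was the highest control, and with that signal as a covariate the log2 fold change was 0.34 (adjusted p = 0.284). The call was also lost without knockout 1, knockout 2, control 1 or control 2, in 5 of 14 alternatives in all. P4ha1, the main alpha subunit of these cells, had 0.20 (SE 0.10, adjusted p = 0.298) and P4ha3 -0.01 (SE 0.20), both with overlapping groups. The shared beta subunit P4hb went the other way at 725, 666 and 779.7 CPM against 895, 911 and 949.8. Its groups did not overlap, and the log2 fold change of -0.34 (SE 0.09) missed the threshold (adjusted p = 0.0740).

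P4ha2 is also a known target of the hypoxia-inducible factors, whose binding sites hold ACGTG or GCGTG. RefSeq promoter windows (GRCm38.p6) were matched for 24 of the 35 genes, among them the risen hypoxia targets P4ha2 and Loxl4. The promoter of P4ha2 is shown because it holds more of these letters than that of Loxl4. The window is chr11:54100674-54100953, plus strand, with 250 bases before the start of the transcript and 30 after it. Capitals mark ACGTG, found 2 times, and GCGTG, found 2 times, once as its reverse complement.
P4ha2: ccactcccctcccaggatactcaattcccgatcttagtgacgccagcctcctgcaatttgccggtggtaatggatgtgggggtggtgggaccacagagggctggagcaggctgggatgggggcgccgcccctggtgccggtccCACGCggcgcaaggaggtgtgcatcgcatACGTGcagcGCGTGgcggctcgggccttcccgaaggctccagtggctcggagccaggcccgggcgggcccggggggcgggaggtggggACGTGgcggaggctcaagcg
The 300-base windows run 50 bases past the start and were searched on both strands. Of all 32851 windows 43.8% hold ACGTG or GCGTG, as do 20 of the 27 windows of the members, from 18 of the 24 genes. A match is a description of letters and not a binding site. Of the 7 members known as hypoxia targets (P4ha1, P4ha2, Plod1, Plod2, Lox, Loxl2, Loxl4), 4 rose in the LDH knockout. None of 16 tested hypoxia genes outside the set passed in edgeR, and their median log2 fold change was -0.13, with 7 above 0 and 9 below. An unadjusted p under 0.05 was found for 5, namely Pdk1, Vegfa, Slc2a1 and Ndrg1, all lower, and Pfkfb3, higher. The share of all genes at that level is not given here. Knockouts were all below controls in 5 and all above in 1, against 12.5% and 11.9% of all genes.

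The lysyl hydroxylases did not pass. Plod1, which modifies helical lysines, had -0.04 (SE 0.08), Plod2, which modifies telopeptide lysines, 0.10 (SE 0.10) and Plod3, which also transfers sugars, 0.29 (SE 0.09, adjusted p = 0.117). Only for Plod3 did the groups not overlap, with the knockouts at 315, 349 and 328 CPM and the controls at 262, 252 and 296. The folding chaperones also did not pass. Serpinh1 was at 2063, 1702 and 2137 CPM against 2014, 1778 and 2228, with wide overlap, and Fkbp10, an isomerase that works with lysyl hydroxylase 2, had -0.02 (SE 0.08). Fkbp14, a related isomerase, was at 12.5, 10.8 and 12.4 CPM against 16.8, 15.1 and 15.4, and its log2 fold change of -0.40 (SE 0.11) missed the threshold (adjusted p = 0.0956). Sparc, which binds collagen in the matrix, was at 2302, 2882 and 2502 CPM against 1991, 1738 and 1977, groups that did not overlap (0.43, SE 0.11, adjusted p = 0.0667).

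Of the 3 export genes, 2 fell. Sec24d, the cargo-binding COPII coat subunit whose loss impairs collagen export, was at 172, 149 and 205 CPM in knockouts against 301, 318 and 231 in controls. The knockouts were all lower, with control 3 nearest to them (log2 fold change -0.69, SE 0.14, adjusted p = 0.0387 in edgeR). With the Y-linked signal as a covariate it was -0.34 (adjusted p = 0.380). Mia3 (TANGO1), the receptor that loads procollagen into COPII carriers, was at 181, 181 and 187 CPM against 228, 227 and 238. Both groups were tight (log2 fold change -0.34, SE 0.07, adjusted p = 0.0423), but the calls of Sec24d and Mia3 were each lost in 7 of 14 alternatives. Sec23a, the inner coat partner of Sec24d, had -0.18 (SE 0.09, adjusted p = 0.276) with overlapping groups.

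The promoters of the 3 export genes are shown because all 3 hold TGACGT, the core of the sites bound by ATF6 and other factors of the CREB and ATF families. Each window has 250 bases before the start and 30 after it, printed in the direction of transcription (RefSeq, GRCm38.p6). They are chr3:123267246-123267525 on the plus strand for Sec24d, chr1:183369536-183369815 on the minus strand for Mia3 and chr12:59011988-59012267 on the minus strand for Sec23a. Capitals mark TGACGT.
Sec24d: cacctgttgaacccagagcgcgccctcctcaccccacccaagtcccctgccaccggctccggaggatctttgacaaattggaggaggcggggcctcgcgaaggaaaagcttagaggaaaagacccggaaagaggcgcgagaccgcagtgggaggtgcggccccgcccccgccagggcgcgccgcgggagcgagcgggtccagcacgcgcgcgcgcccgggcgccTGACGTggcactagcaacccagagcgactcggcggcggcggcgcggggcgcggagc
Mia3: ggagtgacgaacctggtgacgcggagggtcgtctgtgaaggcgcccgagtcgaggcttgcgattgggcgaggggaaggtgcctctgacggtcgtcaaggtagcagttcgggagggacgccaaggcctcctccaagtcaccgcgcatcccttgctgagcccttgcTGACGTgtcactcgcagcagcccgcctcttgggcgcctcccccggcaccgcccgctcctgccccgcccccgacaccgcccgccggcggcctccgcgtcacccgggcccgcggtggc
Sec23a: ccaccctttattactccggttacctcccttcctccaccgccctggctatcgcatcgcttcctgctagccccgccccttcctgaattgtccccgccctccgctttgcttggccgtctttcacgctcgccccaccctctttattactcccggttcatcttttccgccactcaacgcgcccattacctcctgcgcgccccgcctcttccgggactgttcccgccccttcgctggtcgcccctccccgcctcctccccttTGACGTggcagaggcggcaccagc
The motif begins 26 bases before the start in Sec24d, 86 bases before it in Mia3 and at base 7 after it in Sec23a. On both strands of the 300-base windows it occurs in 7.51% of all 32851 windows and in 6 of the 27 windows of the members. These come from 5 of the 24 genes with a window, the others being Adamts3 and Colgalt1. In these export windows it is followed by g and so overlaps an ACGTG. The letters CCACG, part of the endoplasmic reticulum stress element, occur in 32.8% of all windows and in 18 of the 27 windows of the members, from 16 of the 24 genes. The full stress element was also searched. It occurs in 0.119% of all windows and in 0 of the 27 windows of the members. Of the 3 export genes, 2 hold the shorter part and Mia3 does not. The motifs were chosen after the expression values were seen, and no test was made of them.

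Outside the set, 37 of 38 listed genes of endoplasmic reticulum folding and COPII export were in the table and 34 were tested. None rose and 3 fell in the LDH knockout, where 1.43% of all genes rose and 1.07% fell. The median log2 fold change was -0.23 against 0.01 over all genes. Knockouts were all below controls in 17 and all above in 2, against 12.5% and 11.9% of all genes. Hspa5 (BiP), the main chaperone of the compartment, was at 2038, 1647 and 3173 CPM against 4031, 4731 and 4202 (log2 fold change -0.92, SE 0.20, adjusted p = 0.0487). Sec23b, the paralogue of Sec23a, had -0.57 (SE 0.12, adjusted p = 0.0387) and the isomerase Fkbp11 -0.97 (SE 0.17, adjusted p = 0.0228).

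The substrates moved differently. Of 19 collagen chain genes, 10 rose and 1 fell in the LDH knockout, with a median of 0.66. The 4 with the lowest p were Col27a1 (2.60, SE 0.28), Col11a1 (1.21, SE 0.16), Col6a3 (0.57, SE 0.08) and Col6a2 (1.01, SE 0.15), each with an adjusted p between 0.00316 and 0.0118. Col1a2, a chain of bone and fibrous tissue, was the gene that fell (to 49.9% of control, adjusted p = 0.0196). Summed over 10 fibrillar collagen genes, the level went from 3983 ± 314 to 7698 ± 1551 TPM, while the sum of the 21 members acting inside the cell was 4427 ± 82.7 TPM in controls and 4187 ± 289 in knockouts.

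Per 100 TPM of fibrillar collagen, the members acting inside the cell summed to 112 ± 6.85 TPM in LDH controls and 56.3 ± 14.2 in LDH knockouts. The ranges did not overlap, with the controls at 104 to 118 and the knockouts at 41.1 to 69.3. In the Acly set the same ratio was 121 ± 7.51 in controls and 80.0 ± 5.06 in knockouts, again without overlap. Serpinh1 and P4hb are large parts of that sum, at 1733 and 699.8 of 4427 TPM in LDH controls. Their own ratios are therefore not independent of it. Serpinh1 alone went from 43.6 ± 2.55 to 22.7 ± 7.13 in the LDH set and from 44.3 ± 4.06 to 31.0 ± 2.50 in the Acly set. P4hb went from 17.7 ± 1.78 to 7.32 ± 2.08 and from 17.2 ± 0.701 to 10.9 ± 0.455. Loxl4 was at 12.4 ± 1.86 in LDH controls and 11.6 ± 1.65 in LDH knockouts, with overlapping ranges. In the Acly set it was at 4.83 ± 1.23 in controls and 3.44 ± 0.434 in knockouts, without overlap. The denominator is mostly Col2a1, itself a chondrocyte marker, at 3508 ± 228 TPM in LDH controls and 6969 ± 1479 in knockouts, so these ratios are descriptions and were not tested.

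**Figure D4:**
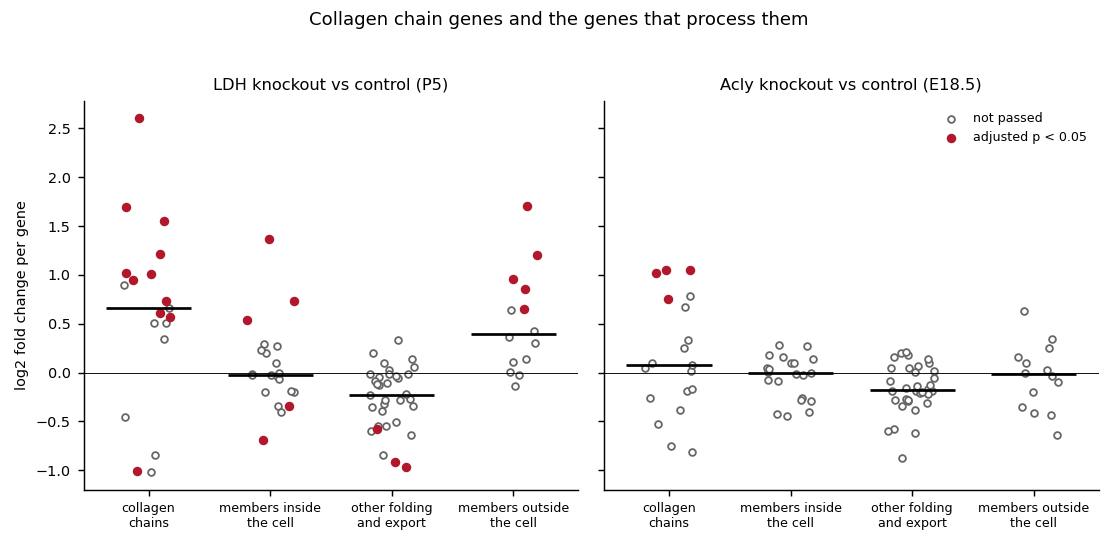
Log2 fold change, knockout over control, of 19 collagen chain genes, the 21 members acting inside the cell, 34 other folding and export genes and the 14 members acting outside the cell. Points are genes, filled where the adjusted p was under 0.05, and bars are medians. In the LDH knockout (left) the medians were 0.66, -0.02, -0.23 and 0.40, and in the Acly knockout (right) 4 collagen genes were filled.

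In the Acly knockout 0 of the 35 genes passed in edgeR, where 0.136% of 13973 genes tested did. With an unadjusted p under 0.05 there were 10 of the 35, against 15.8% of all genes. DESeq2 called 2, Pcolce2 higher and Sec24d lower, and without knockout 2 edgeR called 1, Pcolce2. Groups did not overlap in 5 higher and 5 lower of the 35, where 22.0% of all genes tested did not overlap, 10.7% higher and 11.3% lower. The median log2 fold change was -0.01, and the members acting inside and outside the cell had medians of -0.01 and -0.02.

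Pcolce2 had the lowest p. It was at 41.2, 52.5 and 50.9 CPM in Acly knockouts against 29.6, 31.0 and 33.1 in controls, every knockout above every control (log2 fold change 0.63, SE 0.11, adjusted p = 0.101 in edgeR). Without knockout 2 it was 0.56 (adjusted p = 0.0397). Sec24d was at 156, 132 and 151 CPM against 180.1, 220.1 and 189.7, every knockout below every control (-0.43, SE 0.11, adjusted p = 0.211). Its export partner Sec23a was at 94.0, 72.5 and 94.0 CPM against 94.1, 126 and 124, where knockout and control 1 met at the edge (-0.40, SE 0.14, adjusted p = 0.268).

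Tgm2 was at 41.9, 49.5 and 48.6 CPM against 39.7, 35.9 and 34.8, knockouts all higher (0.34, SE 0.10, adjusted p = 0.240). Crtap was at 146, 170.2 and 144 CPM against 135, 123 and 124, also all higher (0.27, SE 0.10, adjusted p = 0.269). Fkbp14 was at 16.2, 12.1 and 15.7 CPM against 17.9, 23.5 and 18.3, all lower (-0.44, SE 0.16, adjusted p = 0.271). None of these 6 passed, and each was chosen for its low p.

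Some members were spread by knockout 2, the sample with few fibroblast markers. Pcolce was at 80.6 CPM there and at 182 and 176 in the other knockouts. Lox was at 46.3 against 109.9 and 112, and Adamts2 at 12.6 against 27.3 and 31.5. Loxl3 went the other way, at 310.1 in knockout 2 and 168 and 246 in the others. All 4 genes had overlapping groups, and their log2 fold changes depended on that 1 library. Without knockout 2, Pcolce went from 0.02 to 0.32, Lox from -0.42 to -0.10, Adamts2 from -0.35 to -0.05 and Loxl3 from -0.01 to -0.23. The difference between both knockout effects, described below, was 1.06 for Lox without that sample and 1.38 with it. The part of fibroblast content in these values was not tested.

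Of the collagen chains, 4 of 19 rose in the Acly knockout, namely Col2a1 (1.05, SE 0.11, adjusted p = 0.0138), Col27a1 (1.05, SE 0.13), Col10a1 (1.02, SE 0.13) and Col9a3 (0.75, SE 0.11). The median over all 19 was 0.08. None of the 34 other folding and export genes passed in edgeR, 11 of them with an unadjusted p under 0.05, and their median was -0.17. Of 17 tested hypoxia genes outside the set, 1 fell and none rose. It was Car12, a carbonic anhydrase (-0.93, SE 0.12, adjusted p = 0.0314). The median of the 17 was -0.26, with 13 below 0. Knockouts were all below controls in 8 and all above in 1, against 11.3% and 10.7% of all genes. An unadjusted p under 0.05 was found for 7, against 15.8% of all genes. Adm, the hormone adrenomedullin, had the highest value (1.24, SE 0.35, adjusted p = 0.232).

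The difference between both knockout effects was tested in a fit of all 12 samples. It passed for 2 of the 35 genes, Loxl2 and P3h2, where 0.161% of 14251 genes passed. For Loxl2 the LDH effect was 1.71 and the Acly effect -0.10, a difference of 1.82 (SE 0.20, adjusted p = 0.00171 in edgeR). In the Acly set its samples were at 39.7, 31.9 and 37.8 CPM in knockouts and 37.2, 40.7 and 39.4 in controls, close to the LDH controls. For P3h2 the LDH effect was 0.73 and the Acly effect 0.09, a difference of 0.65 (SE 0.10, adjusted p = 0.0278).

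With the Y-linked signal as a covariate, an alternative added after the data were seen, Loxl2 passed (1.88, adjusted p = 0.0183) and P3h2 did not (0.74, adjusted p = 0.0619). The P3h2 call was also lost with the replicate number as a block, and without LDH knockout 1 or 2, LDH control 2 or 3, or any of the Acly controls. For P4ha2 (0.64, SE 0.14, adjusted p = 0.0992), Loxl4 (0.71, SE 0.19, adjusted p = 0.185), Lox (1.38, SE 0.42, adjusted p = 0.230), Colgalt2 (1.10, SE 0.33, adjusted p = 0.226), Pcolce2 (0.60, SE 0.20, adjusted p = 0.272) and the other members the difference did not pass in edgeR, while DESeq2 also called Loxl4 and P4ha2. For Sec24d the effects were -0.69 and -0.43, and for Tgm2 0.65 and 0.34. Their differences of -0.25 (SE 0.20) and 0.32 (SE 0.18) were not past the threshold, which does not show that both knockouts act alike.

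The control groups themselves differed in 24 of the 35 genes, 16 higher and 8 lower in the Acly controls at E18.5 than in the LDH controls at P5, where 55.0% of 14251 genes passed, 29.4% higher and 25.7% lower. The members' share is thus not far above that of all genes. Without scaling, or on FPKM, 23 passed, of which 19 were higher, and the median of all genes moved from 0.02 to 0.19 and 0.13. Age, mouse line and any library batch coincide in this comparison and cannot be told apart.

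Adamts2 was at 28.9 ± 5.99 CPM in Acly controls and 3.72 ± 0.181 in LDH controls, scaled over 12 samples (log2 difference 2.96, SE 0.30, adjusted p = 4.04e-06 in edgeR), and 1.85 on the log2(FPKM + 1) scale. Pcolce was at 136 ± 11.2 against 24.5 ± 6.42 (2.48, SE 0.27) and P4ha3 at 17.5 ± 1.69 against 5.39 ± 0.869 (1.70, SE 0.17). All 9 fibroblast markers, all 5 endothelial and all 7 muscle markers were also higher in the Acly controls. So were 9 of 10 fat cell, 7 of 9 chondrocyte, 5 of 7 tested osteoblast, 4 of 5 red cell and 3 of 5 leukocyte markers. Lower were 1 chondrocyte and 1 leukocyte marker. Of all genes 29.4% were higher, and the part of cell content in these differences was not tested. In the other direction, Loxl4 was at 518 ± 115 CPM in Acly controls and 1485 ± 163 in LDH controls (-1.52, SE 0.14). Sec24d (-0.68, SE 0.14) and Tgm2 (-0.59, SE 0.12, or -0.38 on the log2(FPKM + 1) scale) were also lower. The LDH controls serve in this comparison and in that of the LDH knockout, so the results of both are not independent.

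**Figure D5:**
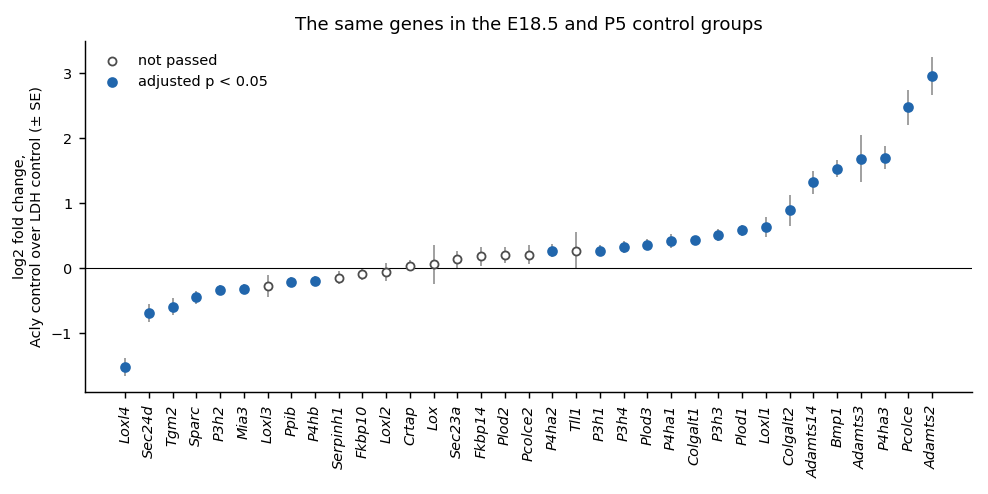
Log2 difference of Acly control (E18.5) over LDH control (P5) for the 35 genes, with standard errors, in rising order. Filled points, 24 of 35, had an adjusted p under 0.05. Loxl4 was lowest at -1.52 and Adamts2 highest at 2.96.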

How the data were processed

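Polyadenylated RNA of 12 samples in 4 groups of 3 was sequenced by BGI, per the labels' protocols. HISAT2 2.0.4 and the build mm9 are named in the submitters' processing notes. The counting program, the annotation and the use of strand are not given in the sources used here. The authors deposited 1 table with read counts, FPKM values and TPM values per gene and sample, per the file headers. Between 7.32% and 8.16% of the deposited counts of a sample are not whole, so the authors deposited estimated counts, not scaled to depth, and these were rounded to whole numbers here. Reads shared between genes may have been split, which makes overlapping genes uncertain.

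Rounded counts were tested with edgeR 4.0.16 in R 4.3.3 (TMM scaling, filterByExpr, two-sided quasi-likelihood F test, Benjamini-Hochberg adjustment over all tested genes, threshold 0.05). A knockout comparison used its own 6 samples. A fit of all 12 gave the difference of effects and the control comparison. The standard error is the log2 fold change divided by the square root of F. At this depth 3 counts correspond to 0.107 to 0.114 CPM. No molecular identifiers are named, so this covers counting error only. TPM was used for levels between genes, with no test. The authors' FPKM values entered an alternative test with limma 3.58.1 on log2(FPKM + 1). Other alternatives were median-of-ratios scaling (RLE), no scaling, no filter on low counts, DESeq2 1.42.0, the replicate number as a block, all 12 samples in a knockout fit, the Y-linked signal as a covariate and leaving out each sample in turn. The edgeR step was tested on simulated counts.

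The members and gene lists were chosen with earlier results of these data known. Full values are given for members past the threshold in a knockout comparison or in the difference, for the 6 with the lowest p in each knockout comparison, and for the 3 largest rises and 3 largest falls between controls (called members averaging 5 CPM or more). From each other list at most 4 called genes by lowest p are named. P4hb, Serpinh1, Plod3, Sparc, Pcolce, Lox, Adamts2, Loxl2 and Loxl3 outside that rule, and Col1a2 and Adm, were described after their values were seen. Samples of a group differed by more than sampling noise, so none was merged.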

Additional observations from a re-analysis of the deposited data

Results flagged for a closer look

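Loxl2 and P3h2 differed between both knockouts by a test of the difference itself. For Loxl2 the difference between the LDH and the Acly effect was 1.82 on the log2 scale (adjusted p = 0.00171 in edgeR), with effects of 1.71 and -0.10. It kept its call in all 19 alternative fits of the difference, among them each left-out sample and the Y-linked covariate (1.88, adjusted p = 0.0183). For P3h2 the difference was 0.65 (adjusted p = 0.0278), with effects of 0.73 and 0.09. That call was lost in 9 of 19 alternatives, among them the replicate block, the Y-linked covariate and each Acly control left out. The Y-linked signal was near 0 in all 3 LDH knockouts. The age of the mice and the gene deleted coincide in this comparison and cannot be told apart.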

How the results depend on the processing

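The main limits are 3 samples a group, the Y-linked signal that moves with the LDH genotype, and low counts of several propeptidases. No member chosen by the rule above for full values changed direction in its comparison in any alternative. All 140 of 140 values of the 10 genes changed in the LDH knockout kept their sign. On FPKM the sign changed for 1 member in the LDH comparison, 4 in the Acly comparison, 2 in the difference and 3 between controls. None of these was called in that comparison, and the other scalings changed no more signs. In the LDH comparison 332 genes passed as reported, 901 with DESeq2 and 3 with the Y-linked covariate. With that covariate 0 members passed. Log2 fold changes such as 1.96 for Loxl2 and 1.06 for Loxl4 were larger than without it, and those of P4ha2 (0.34) and Sec24d (-0.34) were smaller. Among the LDH controls only control 3 had a signal near 0, so these values rest largely on that library. Leaving out single samples gave 95 to 1068 genes and 5 to 12 members. In the Acly comparison 19 genes passed as reported, 11 without scaling, 32 without the filter, 247 with DESeq2, 31 with all 12 samples, 6 with the Y-linked covariate, and 0 to 132 without single samples. DESeq2 called 2 members, and 0 to 1 passed without single samples. For the difference 23 genes passed, 213 with DESeq2 (4 members), 6 with the Y-linked covariate (1 member, Loxl2), an alternative added after the data were seen, and 5 to 143 (1 to 2 members) without single samples. Between controls, leaving out single samples gave 6705 to 7127 genes and 21 to 24 members. Where a sample was left out, the cause of a changed count was not tested beyond the smaller number of samples. Same-numbered knockout and control samples did not deviate together (correlations of 0.0291, -0.163 and -0.0414 in the LDH set and -0.316, -0.460 and -0.334 in the Acly set). Deviations from a mean of 3 samples cannot settle whether the numbers pair them, for example by litter. With the replicate number as a block, 362 genes and 8 members passed in the LDH comparison (Sec24d and Mia3 lost), 8 genes and 0 members in the Acly comparison (4 members at an unadjusted p under 0.05), and 5 genes and 1 member in the difference (P3h2 lost).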
